A study of Homo sapiens with 8 samples.

Results

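The genes described here encode the enzymes of cholesterol synthesis and of fatty acid synthesis, with the proteins that control and move sterols. Of 33 listed genes, 29 had a probe set annotated to that gene alone, and each gene was read from its brightest such probe set, by mean log2 signal over the 8 arrays. A gene was kept when its scaled signal reached 50 on at least 1 array, which 28 genes did, out of 19775 genes named on the arrays. All 28 were among the 8982 genes tested in the fit of the adenovirus arrays, which asked for a signal of 50 on 2 of 6 arrays. FADS2 stayed outside with a highest signal of 23.3, and TM7SF2 lay just inside with a highest signal of 67.5. The probe sets of CYP51A1 and FADS1 are annotated to a second gene as well, and FDFT1 and ACSL3 were not matched to a probe set, so these 4 were not analysed here. The kept genes are 16 of 18 for sterol synthesis, all 4 for SREBP control, both for sterol transport and 6 of 9 for fatty acids.

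RNA came from HaCaT cells, an immortalized human keratinocyte line, and each of 8 groups held 1 Affymetrix array. In 6 groups the cells were infected with adenovirus. The control virus carried LacZ, another carried the constitutively active mutant HRAS G12V, and the third carried HRAS N116Y, a mutant that acts as a dominant negative. Each of the 3 was left untreated or given 5 ng/ml TGF-beta3 for 24 h. In the other 2 groups cells were transfected with siRNA, either a control or one directed at p53, with no virus and no TGF-beta. The design text presents the series as a survey of active and dominant negative RAS, p53 siRNA and TGF-beta. Titles and the stimulation field name the same TGF-beta state for each array, while a further label field names the opposite state for the 6 adenovirus arrays. Directions below follow the titles. Along them SMAD7, a feedback gene of TGF-beta signalling, had signals of 47.7 to 57.8 on the 3 untreated arrays and 149.7 to 177 on the 3 treated arrays.

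The probe set of HRAS itself went against the vector labels, so arrays are called by their label throughout. Its signals were 316 and 287 on the arrays labelled LacZ, 109 and 86.1 on those labelled HRAS G12V, and 67.1 and 58.1 on those labelled HRAS N116Y. The sources used here do not say whether that probe set lies within the vectors' insert. The siRNA arrays differed from the others in how far the 3' actin probe set exceeded the 5' one, a ratio of 3.68 and 4.01 against 1.16 to 1.39 on the adenovirus arrays. Since a group is 1 array, the p-values reflect no more than the scatter among these arrays, which may be technical.

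Cells make cholesterol from acetyl-CoA through mevalonate, farnesyl diphosphate, squalene and lanosterol, and make fatty acids from the same acetyl-CoA through malonyl-CoA. The membrane-bound transcription factors of the SREBP family switch on the genes of both routes. When sterols are low, SCAP escorts an SREBP out of the endoplasmic reticulum for cleavage, and INSIG proteins hold the pair back when sterols are high. In epidermis, keratinocytes use both routes to supply the lipids of the skin barrier.

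The labelled cell type matched its markers. Of 10 keratinocyte markers 7 had a usable probe set, and all 7 reached a signal of 50. Of 8 fibroblast markers COL1A1 and COL3A1, 2 in all, reached 50, of 4 measured sebocyte markers 1 did (FAR2), and 0 of 6 adipocyte, 4 melanocyte, 4 leukocyte and 4 endothelial markers did on any array. The summed keratinocyte signal was 20616 to 22563 on the untreated adenovirus arrays and 33787 to 38106 with TGF-beta3, and 6 of its 7 genes rose in the fit. The fibroblast sum was 87 to 185 untreated and 230 to 424 treated. Both sums thus moved with TGF-beta3 as the sterol genes did. The collagen gene COL3A1 moved with the vector instead, at 107.2 and 144.1 on the arrays labelled HRAS N116Y and 4.2 to 17.8 on the other 4 adenovirus arrays, while the fibroblast markers other than the collagens COL1A1 and COL3A1 stayed at or below 21.7. The part of these markers in the results below was not tested. In such bulk samples fewer cells of a type and less RNA per cell cannot be told apart.

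With TGF-beta3, averaged over the 3 vectors, 17 of the 28 genes rose and 2 fell at an adjusted p under 0.05. Among all genes tested 16.3% rose and 17.4% fell. The sterol synthesis genes gave most of the rises: 12 of 16 rose and 0 fell, with a median change of 0.63 on the log2 scale. The fatty acid genes were mixed, with 2 of 6 rising (ACLY and SCD) and 1 falling (ELOVL6), and a median of 0.33, which was 0.195 without both arrays labelled HRAS G12V. The median over all genes tested was -0.01. On the scaled signal, the 3 treated arrays lay above the 3 untreated ones for 16 of the 28 genes (57.1%) and below them for 1 (3.57%), against 19.4% and 22.2% of all genes tested. Leaving out both arrays labelled HRAS G12V reduced the members called to 11 rising and 1 falling, as MVD, FDPS, LSS, DHCR7, NPC1, ACLY and SREBF1 lost their call. Over all 8982 genes the same step reduced the calls from 1466 rising and 1567 falling to 990 and 1049. With no filter on dim genes 0 members passed, as 0 of all 19775 genes did, while 19 of the 28 had an unadjusted p under 0.05.

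**Figure D1:**
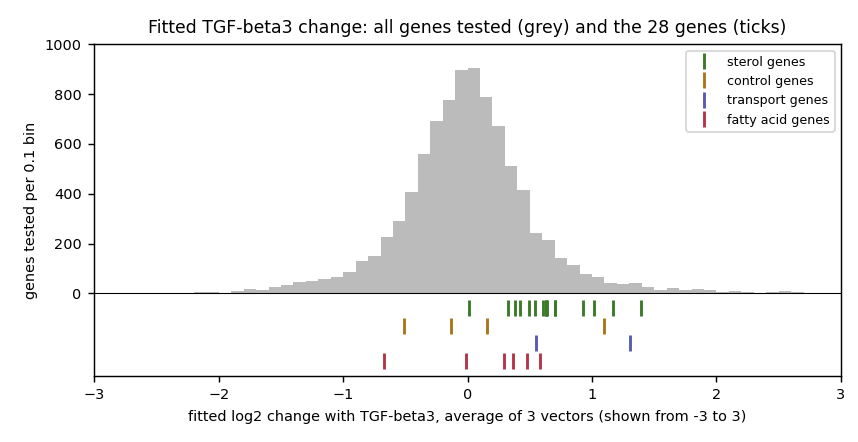
Histogram of the fitted log2 change with TGF-beta3 for the 8982 genes tested (x axis, average of 3 vectors; y axis, genes per 0.1 bin), with 1 tick below it for each of the 28 genes by role. The ticks of the sterol genes run from 0.01 to 1.39, right of the histogram's centre, and those of the fatty acid genes from -0.67 to 0.58.

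The stretch of 250 bases before the transcription start was read for 25 of the 28 genes in RefSeq promoters of GRCh38.p14; ACAT2, SQLE and FASN had no entry. The CCAAT box, the letters CCAAT or ATTGG on the strand of the gene and a known binding motif of the factor NF-Y, which works beside SREBPs at sterol promoters, was found in 20 of the 25. It was in 13 of 14 sterol genes, PMVK being the exception, and in 4 of 5 fatty acid genes, ELOVL6 being the exception. Of the 15 genes that rose with TGF-beta3 and had an entry 14 held it, all but NPC1, and SREBF1, which fell, and SCAP, which did not pass, had none. MVK, TM7SF2, EBP, SREBF2, ACSS2 and ACACA also held the box and did not pass, and their sequences are not shown. Among all the promoters read at this length 32.0% held it, and of those of genes tested 42.7%. The sequences of 8 genes are shown: the 6 with the largest rises with TGF-beta3, 0.93 to 1.39 on the log2 scale, which hold 1 to 4 boxes, and 2 chosen for having none, PMVK, whose change did not pass, and ELOVL6, which fell. Each is given 5′ to 3′ on the strand of the gene, ending at the base before the start, with CCAAT and ATTGG in capitals.
HMGCS1 (chr5:43313413-43313662, minus strand): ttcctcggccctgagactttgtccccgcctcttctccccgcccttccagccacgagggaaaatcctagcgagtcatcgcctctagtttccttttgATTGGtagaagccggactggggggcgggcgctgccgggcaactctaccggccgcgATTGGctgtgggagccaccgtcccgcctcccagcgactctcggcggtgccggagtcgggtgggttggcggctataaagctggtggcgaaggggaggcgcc
STARD4 (chr5:111512536-111512785, minus strand): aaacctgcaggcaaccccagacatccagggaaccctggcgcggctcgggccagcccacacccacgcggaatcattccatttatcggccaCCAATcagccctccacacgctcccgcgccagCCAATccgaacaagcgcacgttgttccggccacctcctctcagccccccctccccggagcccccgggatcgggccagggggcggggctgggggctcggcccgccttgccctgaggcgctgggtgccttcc
SC5D (chr11:121292521-121292770, plus strand): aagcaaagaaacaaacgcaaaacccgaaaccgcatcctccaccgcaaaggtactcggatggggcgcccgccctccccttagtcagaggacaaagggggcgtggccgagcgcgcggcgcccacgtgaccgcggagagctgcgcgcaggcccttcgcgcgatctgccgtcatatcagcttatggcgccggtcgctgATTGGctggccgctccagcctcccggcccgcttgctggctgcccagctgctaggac
INSIG1 (chr7:155297628-155297877, plus strand): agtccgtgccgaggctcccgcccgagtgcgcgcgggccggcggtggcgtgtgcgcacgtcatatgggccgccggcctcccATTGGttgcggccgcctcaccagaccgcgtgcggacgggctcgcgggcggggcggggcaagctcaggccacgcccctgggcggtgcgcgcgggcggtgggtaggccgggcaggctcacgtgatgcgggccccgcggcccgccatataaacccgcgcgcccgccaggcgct
MSMO1 (chr4:165327419-165327668, plus strand): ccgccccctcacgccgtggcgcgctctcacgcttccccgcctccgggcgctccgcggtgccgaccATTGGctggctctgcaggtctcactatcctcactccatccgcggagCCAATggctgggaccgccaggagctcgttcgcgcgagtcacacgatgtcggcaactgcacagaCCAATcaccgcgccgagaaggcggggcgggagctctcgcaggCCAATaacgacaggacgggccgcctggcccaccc
IDI1 (chr10:1048887-1049136, minus strand): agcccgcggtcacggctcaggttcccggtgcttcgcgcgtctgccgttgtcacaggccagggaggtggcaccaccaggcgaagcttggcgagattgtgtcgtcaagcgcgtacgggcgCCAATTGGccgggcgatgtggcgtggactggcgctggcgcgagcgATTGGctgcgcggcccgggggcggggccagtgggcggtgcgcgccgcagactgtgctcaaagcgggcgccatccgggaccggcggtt
PMVK (chr1:154936720-154936969, minus strand): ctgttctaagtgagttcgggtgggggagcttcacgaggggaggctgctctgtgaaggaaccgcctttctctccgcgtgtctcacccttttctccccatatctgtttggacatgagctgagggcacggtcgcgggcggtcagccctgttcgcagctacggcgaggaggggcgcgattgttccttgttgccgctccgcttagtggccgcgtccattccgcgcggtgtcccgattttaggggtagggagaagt
ELOVL6 (chr4:110198616-110198865, minus strand): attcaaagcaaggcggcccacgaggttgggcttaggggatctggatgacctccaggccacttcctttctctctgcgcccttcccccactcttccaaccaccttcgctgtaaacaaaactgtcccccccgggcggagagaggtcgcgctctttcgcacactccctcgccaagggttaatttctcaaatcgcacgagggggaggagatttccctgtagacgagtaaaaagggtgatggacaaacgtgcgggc

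HMGCS1 and SC5D have 2 starts each in the promoters used and IDI1 has 3, and 1 of them was read. Counts and positions hold for that start. Counted from the start, the HMGCS1 boxes begin at -155 and -100 and those of STARD4 at -161 and -130. SC5D and INSIG1 hold 1 box each, at -56 and -170. In IDI1 a CCAAT and an ATTGG overlap, beginning at -132 and -129, and another box begins at -87. MSMO1 holds 4 boxes, at -185, -139, -76 and -34. Over all genes tested, 16.6% of those with the box rose with TGF-beta3 and 18.3% fell, against 16.1% and 16.7% of those without. A form of the sterol regulatory element itself, TCACNCCAC or its reverse complement GTGGNGTGA, was in 1 of the 25 (SREBF2), against 0.883% of all promoters and 1.23% of those of genes tested. The E-box CACGTG was in 3 of 25 (SC5D, SCAP and INSIG1), against 6.34% of all promoters and 11.7% of those of genes tested, so the members' share was near that background. The GC box GGGCGG or CCGCCC was in 24 of 25, against 42.6% of all promoters and 76.7% of those of genes tested. A match is a description of letters and not of binding.

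Signals below are scaled intensities, given for the arrays labelled LacZ, HRAS G12V and HRAS N116Y in that order. Changes are log2 differences with the standard error of the limma fit over 6 arrays. Early in the mevalonate route, HMGCS1, which makes HMG-CoA, had the largest change of all 28 genes. Its signals were 887, 659 and 567 untreated and 2160.4, 2219 and 1245 with TGF-beta3. The groups did not overlap, and the fitted rise was 1.39 ± 0.13 (SE), or 2.62-fold, with an adjusted p of 3.26e-05. IDI1, which converts isopentenyl diphosphate to its isomer, went from 1562, 1474 and 1081 to 2778, 3282 and 1875. It too showed no overlap, and rose by 0.93 ± 0.11 (SE; adjusted p = 0.000172).

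The thiolase ACAT2, which makes acetoacetyl-CoA, had 925, 839 and 833 untreated and 1534, 1759 and 1038 treated. Its rise was 0.71 ± 0.14 (SE; adjusted p = 0.00303), with the treated array labelled HRAS N116Y lowest of the treated and still above every untreated array. FDPS, which joins the units into farnesyl diphosphate, had 2376, 2208 and 1760.5 and then 3194, 3773 and 2135. Here the groups overlapped, because the treated array labelled HRAS N116Y lay under the untreated ones labelled LacZ and HRAS G12V, and the rise was 0.49 ± 0.12 (SE; adjusted p = 0.0104). MVD, the decarboxylase of the route, was dim, at 62.2, 50.7 and 68.1 untreated and 96.8, 99.1 and 79.3 treated. It did not overlap and rose by 0.61 ± 0.20 (SE; adjusted p = 0.0358). The kinases of mevalonate and of its phosphate, MVK and PMVK, did not pass the test. MVK had 116.5, 131 and 125 untreated and 175, 170.4 and 126 treated, a change of 0.33 (adjusted p = 0.14). PMVK had 133, 190.5 and 173 and 149.9, 168 and 178, a change of 0.01 (adjusted p = 0.974). For MVK the 2 further probe sets that reached 50 had mean changes of -0.25 and -0.07, opposite to the one used. Of the 14 genes with several measured probe sets, 13 had the same sign of change in all of them.

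From squalene to cholesterol, 7 of 9 genes rose and 0 fell. SC5D, a sterol desaturase near the end of the route, had signals of 1085, 771 and 758 untreated and 2044, 2182 and 1609 with TGF-beta3. The groups lay apart and the rise was 1.17 ± 0.13 (SE), or 2.25-fold (adjusted p = 7.87e-05). MSMO1, which oxidises methyl groups of the sterol ring, had 2574, 2154 and 1439.8 and 4357, 4948 and 3037. It rose by 1.01 ± 0.12 (SE; adjusted p = 0.00013), again with no overlap. SQLE, the squalene epoxidase and a known control point, had 1220.5, 979.5 and 789 and 1819, 1836 and 1226. The treated array labelled HRAS N116Y stood just over the untreated array labelled LacZ, and the rise was 0.71 ± 0.11 (SE; adjusted p = 0.000784).

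NSDHL, a sterol dehydrogenase, had signals of 335, 268 and 245 untreated and 411, 444 and 450.4 treated. HSD17B7, a sterol ketoreductase, had 405, 434 and 327 and 641, 688 and 479.7. In both genes the groups did not overlap, and both rose by 0.63 on the log2 scale (adjusted p = 0.00491 and 0.0015). LSS, which closes squalene epoxide into lanosterol, had 303, 295 and 347 untreated and 404, 544 and 438 treated, and rose by 0.54 (adjusted p = 0.0101). DHCR7, the reductase that yields cholesterol, had 552, 529 and 535 and 777, 782 and 620.5, and rose by 0.42 (adjusted p = 0.0163). Neither gene overlapped between states. TM7SF2, a sterol reductase with signals between 29.2 and 67.5 on the 6 arrays, had a change of 0.63 that missed the threshold (adjusted p = 0.0505) and was 0.15 with a floor of 50. The isomerase EBP had 1022, 792 and 1012 untreated and 1504, 1400.5 and 859 treated. Its change was 0.38 (adjusted p = 0.109), and it was higher with TGF-beta3 on the arrays labelled LacZ and HRAS G12V and lower on those labelled HRAS N116Y. In its other measured probe sets the treated array labelled HRAS N116Y stood just above the untreated one, at 566 against 552 and 169 against 161.

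**Figure D2:**
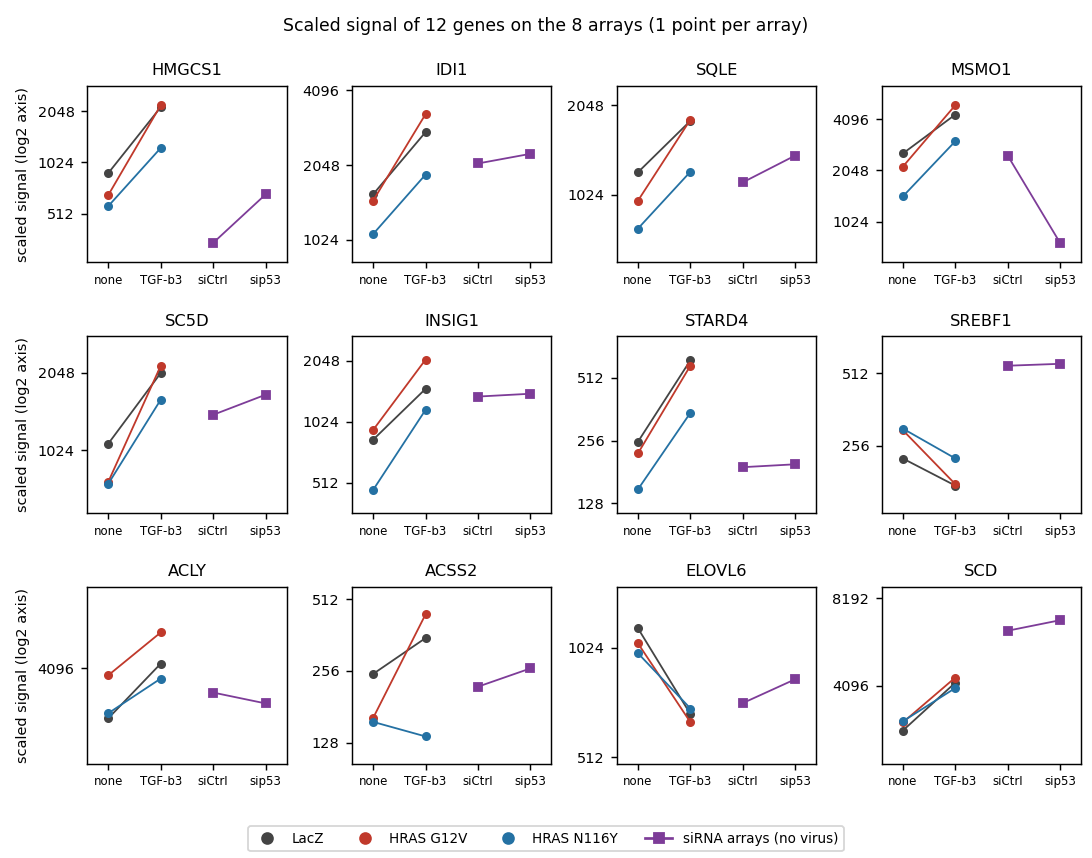
Scaled signal on a log2 axis of 12 genes on the 8 arrays, 1 point per array, with lines joining the untreated and TGF-beta3 arrays of a vector (circles) and the control and p53 siRNA arrays (squares). HMGCS1 goes from 567 to 887 untreated to 1245 to 2219 treated, while ELOVL6 goes the other way, from 990 to 1159 down to 639 to 697.

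Among the 4 genes that control SREBPs, 1 rose and 1 fell. INSIG1, the retention protein that SREBPs themselves induce, had 835, 932 and 472 untreated and 1486, 2070.1 and 1171 treated. The groups did not overlap and the rise was 1.10 ± 0.12 (SE; adjusted p = 7.82e-05); the 2 further probe sets rose alike, by means of 1.01 and 1.32. SREBF1, which encodes the SREBP that favours fatty acid genes, had 226, 297 and 301 and 174, 177 and 226. It fell by 0.51 ± 0.13 (SE; adjusted p = 0.0137), and the treated array labelled HRAS N116Y reached the level of the untreated array labelled LacZ. SREBF2, which encodes the SREBP that favours sterol genes, and its escort SCAP had changes of 0.15 and -0.13, with adjusted p of 0.531 and 0.609. Signals of these genes read their RNA, and the cleaved SREBP proteins were not measured.

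Both sterol transport genes rose. STARD4, which carries cholesterol between membranes, had 253, 223 and 149.7 untreated and 623, 587 and 349 treated. Its rise was 1.31 ± 0.12 (SE), or 2.47-fold (adjusted p = 2.63e-05), with 1.22 to 1.40 in each of the 3 vectors. NPC1, which lets cholesterol out of lysosomes, had 492, 449 and 403 and 741, 753 and 497. The treated array labelled HRAS N116Y was just above the highest untreated array, and the rise was 0.55 ± 0.12 (SE; adjusted p = 0.00573).

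In the fatty acid arm, ACLY, which frees cytosolic acetyl-CoA from citrate, had 3064, 3929 and 3154 untreated and 4203, 5033 and 3855 treated. The groups overlapped because ACLY was high on the untreated array labelled HRAS G12V, and the rise was 0.37 ± 0.11 (SE; adjusted p = 0.0256). Its 2 further probe sets rose more, by means of 0.66 and 0.73. In both the treated arrays lay above the untreated ones, 945 to 1514 against 769 to 895 and 1888 to 2938 against 1356 to 1666, and the untreated array labelled HRAS G12V did not stand out. SCD, the desaturase that makes oleic from stearic acid, had 2874, 3065 and 3093 and 4200.0, 4375 and 4025. It showed no overlap and rose by 0.48 ± 0.11 (SE; adjusted p = 0.00688), and its 3 further probe sets changed by means of 0.48 to 0.56. ELOVL6, which lengthens palmitic acid, went down from 1159, 1054 and 989.6 to 672, 639 and 697. All treated arrays lay below the untreated ones, and the fall was 0.67 ± 0.11 (SE; adjusted p = 0.000977); the mean changes of its other measured probe sets were -0.89 and -0.65.

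The committed enzymes of the arm did not pass. FASN, the fatty acid synthase, had 207, 215 and 159.7 untreated and 246, 281 and 187 treated, a change of 0.29 (adjusted p = 0.105). ACACA, the acetyl-CoA carboxylase, had 315, 306 and 367 and 356, 295 and 328, a change of -0.01 (adjusted p = 0.947). ACSS2, which makes acetyl-CoA from acetate, had 249, 163 and 156 and 352, 442 and 136. It was the most divided of the 28 genes between vectors, rising 2.72-fold on the arrays labelled HRAS G12V and falling 1.15-fold on those labelled HRAS N116Y, and its averaged change of 0.58 missed the threshold (adjusted p = 0.0863).

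Within each vector the TGF-beta3 response is a ratio of 1 array to 1 array and was not tested. The sterol genes had median log2 ratios of 0.61 on the arrays labelled LacZ, 0.85 on those labelled HRAS G12V and 0.33 on those labelled HRAS N116Y. The fatty acid genes had medians of 0.35, 0.37 and 0.03 in the same order, and all genes tested medians of -0.0113, -0.0179 and 0.0003. At least 2-fold higher with TGF-beta3 were 2 of the 28 genes with LacZ (HMGCS1 and STARD4), where 4.22% of all measured genes were. With HRAS G12V there were 8, namely ACAT2, HMGCS1, IDI1, MSMO1, SC5D, INSIG1, STARD4 and ACSS2, against 5.53% of measured genes. With HRAS N116Y there were 5, namely HMGCS1, MSMO1, SC5D, INSIG1 and STARD4, against 4.9%. None of the 28 was at least 2-fold lower in any vector (0 of 28 each), where 4.4%, 4.54% and 4.94% of measured genes were.

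By the probe sets used, the response of sterol genes was larger with HRAS G12V than with LacZ for 13 of 16 genes. The shares were 51.3% of all genes tested and 63.2% of all genes that rose. The response was smaller with HRAS N116Y than with LacZ for 12 of 16, against 51.1% and 53.1%. HMGCS1 had ratios of 1.28, 1.75 and 1.13 with LacZ, HRAS G12V and HRAS N116Y, and LSS had 0.42, 0.88 and 0.33. Further measured probe sets of HMGCS1, LSS, DHCR7 and IDI1 had a larger ratio with HRAS N116Y than with LacZ. Those of MVK and EBP had a smaller one. In HMGCS1 the further probe set went from 599 to 932 with LacZ and from 355 to 775 with HRAS N116Y. In the probe sets used, INSIG1 and NSDHL ran differently, with their highest ratios, 1.31 and 0.88, on the arrays labelled HRAS N116Y. Their further measured probe sets did not share this. For NSDHL the further one had its lowest ratio on the HRAS N116Y pair, at 301 untreated and 324 treated. The LacZ pair stood at 301 and 494 there. Both further ones of INSIG1 had their highest ratio on the HRAS G12V pair, at 157 and 367 and at 452 and 1277. Its HRAS N116Y pair stood at 117 and 211 and at 298 and 737. The LacZ arrays enter both comparisons, and a test of the difference in response would leave no residual degrees of freedom.

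**Figure D3:**
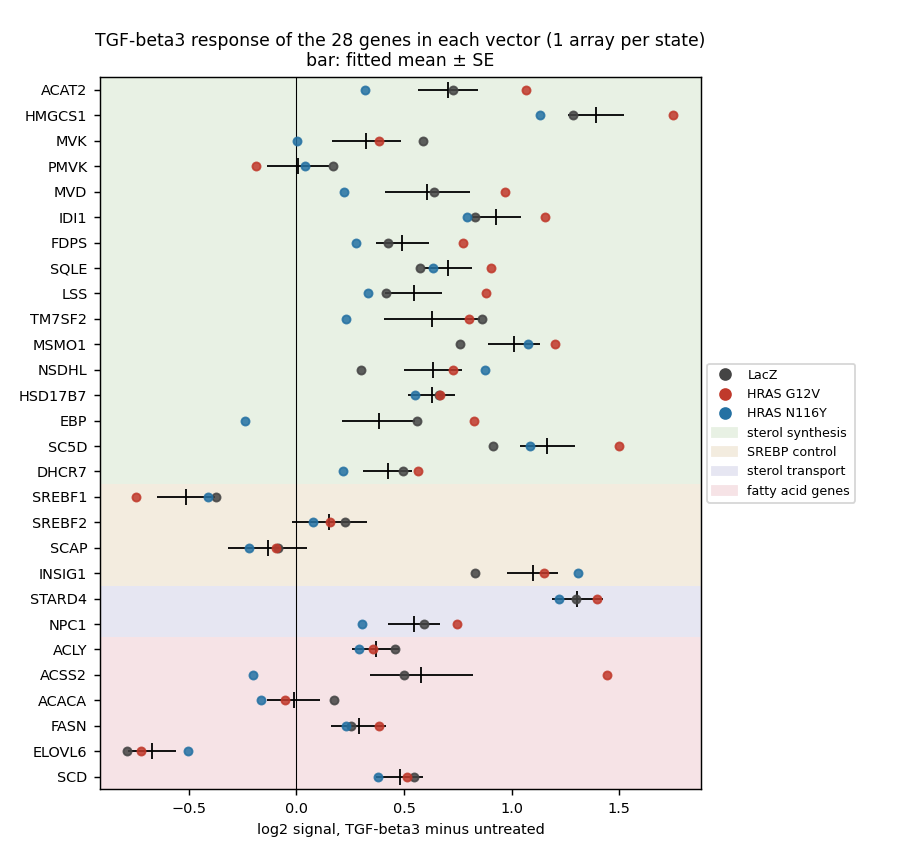
Log2 ratio of TGF-beta3 to untreated signal (x axis) for each of the 28 genes (y axis, shaded by role), with 1 point per vector and a bar for the fitted mean with its SE. Points of the array pair labelled HRAS G12V lie furthest right for most sterol genes, with HMGCS1 at 1.75, and ELOVL6 and SREBF1 lie left of 0 in all 3 vectors.

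Between vectors, averaged over both TGF-beta states, 0 of the 28 genes passed for HRAS G12V against LacZ in limma, where 0.0% of genes tested rose and 0.0445% fell. At an unadjusted p under 0.05 there was 1 of 28 (ACLY, 0.31) and 574 of 8982. The further probe sets of ACLY did not share that direction: HRAS G12V and LacZ stood at 787 and 895 untreated and 1514 and 1507 treated in one, and at 1492 and 1666 and then 2778 and 2938 in the other. Of the 16 sterol genes 1 was lower in both TGF-beta states (6.25%, against 29.1% of all genes tested) and 3 were higher in both (18.8%, against 32.1%). Untreated, 4 of 16 were higher with HRAS G12V than with LacZ (25.0%, against 50.6% of all genes tested), and with TGF-beta3 14 of 16 were (against 52.1%), with medians of -0.12 and 0.10. For SC5D the 2 ratios were -0.49 and 0.09, and for HMGCS1 -0.43 and 0.04.

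For HRAS N116Y against LacZ, 4 genes fell and 0 rose, where 0.846% of genes tested fell and 1.58% rose. COL3A1, given above, is among the genes that rose, and its part in this contrast was not tested. The sterol carrier STARD4 changed by -0.80 ± 0.14 (SE; adjusted p = 0.0174). The 3 others are sterol enzymes, with changes of -0.72 for HMGCS1 (adjusted p = 0.0427), -0.68 for MSMO1 (adjusted p = 0.0401) and -0.60 for SQLE (adjusted p = 0.0482). In each of them the array labelled HRAS N116Y was below that labelled LacZ in both TGF-beta states, as the signals above show: STARD4 stood at 150 against 253 untreated and at 349 against 623 with TGF-beta3. Lower in both states were 15 of the 28 genes (53.6%) and 10 of 16 sterol genes (62.5%), against 24.6% of all genes tested. Higher in both states were 5 of 28, namely PMVK, LSS, TM7SF2, SREBF1 and SCAP, or 17.9% against 31.4%. These calls rest on the processing: 0 to 7 members fell under the alternatives, with 0 when all probe sets of a gene were averaged and 6 when arrays were centred on the median. With that centring the split over all genes moved from 142 rising and 76 falling to 134 and 120. Of 6 fatty acid genes 0 passed, with a median of -0.06 and 2 changes above 0. Yet ACSS2 had the largest change of all 28 genes, -1.02 (adjusted p = 0.117 in limma). ACLY changed by -0.04 in the probe set used and by -0.45 and -0.47 in its others. Of the 14 genes with several measured probe sets, 9 had the same sign in all of them. ACACA, EBP, IDI1, LSS and SREBF2 did not.

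The arrays labelled HRAS G12V and HRAS N116Y differed in 5 of the 28 genes, all higher with HRAS G12V, where 2.58% of genes tested were higher and 3.8% lower. INSIG1 was higher by 0.90 ± 0.15 (SE), or 1.87-fold (adjusted p = 0.00496), at 932 against 472 untreated and 2070.1 against 1171 with TGF-beta3. STARD4 was higher by 0.66 (adjusted p = 0.0228), MSMO1 by 0.64 (adjusted p = 0.0282), IDI1 by 0.63 (adjusted p = 0.0255) and FDPS by 0.57 (adjusted p = 0.0475). These are regulators, carriers and enzymes of the sterol route. Of 6 fatty acid genes 0 passed, too few genes to set against those shares. Fitted changes were above 0 for 14 of 16 sterol genes and 4 of 6 fatty acid genes. The medians were 0.24 and 0.20, so the calls do not set the arms apart. ACSS2 had the widest gap of the fatty acid arm, 0.88 (adjusted p = 0.112), with 442 against 136 under TGF-beta3 but 163 against 156 untreated. This contrast shares its arrays with the others. Across the alternatives 0 to 8 members passed, and median centring moved the split over all genes from 232 higher and 341 lower to 351 and 316.

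**Figure D4:**
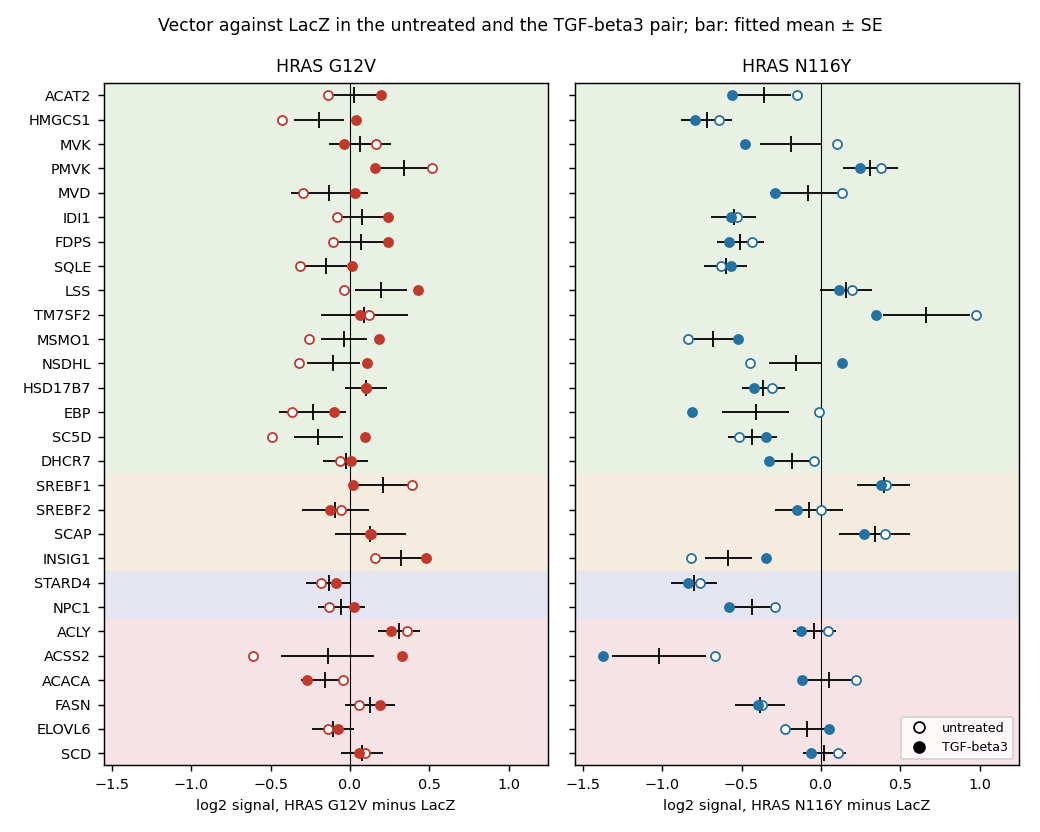
Log2 ratio of the HRAS G12V (left) or HRAS N116Y (right) array to the LacZ array (x axis) for the 28 genes (y axis), open circles untreated, filled circles with TGF-beta3, bars the fitted mean with its SE. At left the sterol genes fall on both sides of 0, at right most lie below it, with HMGCS1 at -0.64 and -0.80.

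The p53 siRNA was compared with the control siRNA on 1 array each, with no test. Of 28 genes, 22 were higher with p53 siRNA (78.6%, against 52.6% of all genes tested), with a median log2 ratio of 0.17 against 0.03. Changes of at least 2-fold were few: of 26 genes with a signal of 50 on either array, 1 was higher and 1 lower, where 2.35% and 6.16% of measured genes were. By the probe sets used, all 7 mevalonate genes were higher, MVD among them at 27.4 and 44.2, under 50 on both arrays. Of the 9 genes from squalene to cholesterol 4 were higher (44.4%, against 52.6% of all genes tested) and 5 lower. LSS and NSDHL were lower by small ratios, -0.06 and -0.08. MVK and IDI1 each have a further measured probe set that was lower, at -0.185 and -0.887, and another that was higher. HMGCS1 is given below. MSMO1 had the largest ratio, 2500.4 and 767 with control and p53 siRNA, or 3.26-fold lower. HSD17B7 was at 638 and 330.5, a ratio of -0.95, and TM7SF2, at 25.1 with p53 siRNA, had a ratio of -0.99, which was 0.0 with a floor of 50 because neither array reached it. DHCR7 was at 215 and 426 and its second probe set at 502 and 829, so both were higher with p53 siRNA.

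HMGCS1 was at 345 and 664 by the probe set used, a ratio of 0.94, but at 1239 and 689 by its second probe set, which went the other way. SREBF2 was at 32.1 and 65.4, a ratio of 1.03, but at 65.6 and 6.2 by its second probe set. Of the 14 genes with several measured probe sets, 5 had 1 sign in all of them here, and on these arrays the actin ratio stood apart as given above. Their part in the siRNA ratios was not tested. By the probe sets used the fatty acid genes moved little, with 5 of 6 higher and ratios from -0.09 for ACLY to 0.30 for FASN. Other measured probe sets were lower for ACACA, at -1.04, and for ELOVL6, at -0.25 and -0.85. Those of SCD were higher, at 0.05 to 0.43, and those of ACLY had -0.01 and 0.16.

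**Figure D5:**
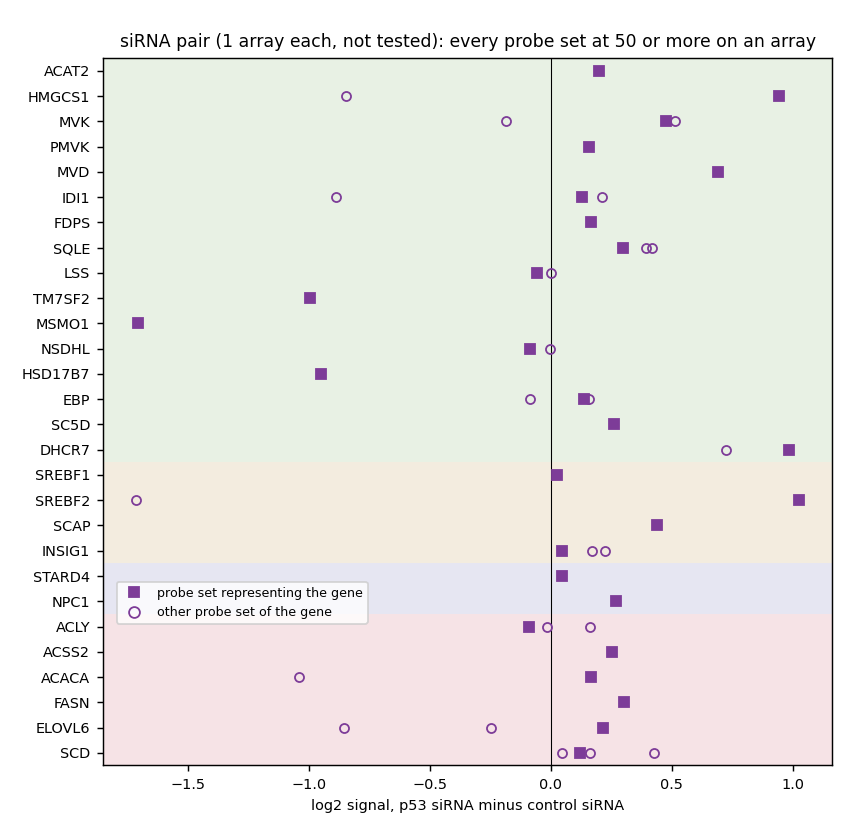
Log2 ratio of p53 siRNA to control siRNA (x axis) for each probe set of the 28 genes with a signal of 50 on an array (y axis, shaded by role); squares are the probe sets that stand for the gene, open circles its others. MSMO1 lies at -1.71, and the probe sets of HMGCS1 and SREBF2 lie on opposite sides of 0.

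Neighbouring pathways gave rises and falls side by side with TGF-beta3, as did all genes tested, of which 16.3% rose and 17.4% fell. Of 14 other genes of SREBP processing 2 rose, INSIG2 by 0.60 and SEC24C, a coat protein of transport vesicles, by 0.46, and 2 fell: UBXN8 fell by 1.06 and ERLIN1 fell by 0.44. Of 5 tested genes of sterol efflux under LXR receptors 0 rose and 0 fell, where 16.3% and 17.4% of all genes did. These are too few genes to differ from such shares. Of the 5 genes 1 had a change above 0, and the median was -0.35. Where the sterol route branches to isoprenoids, 4 of 13 genes fell and 1 rose: PDSS1, which builds the coenzyme Q side chain, fell by 0.75, ICMT, which methylates prenylated proteins, fell by 0.48 and COQ2 fell by 0.46, while GGPS1, which makes geranylgeranyl diphosphate, rose by 0.42. Of 9 NADPH supply genes the malic enzyme ME1 rose by 0.48 and the folate enzyme MTHFD1 fell by 0.73, 1 each.

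Among 11 further genes of fatty acid elongation and activation 3 rose and 0 fell, FADS3 by 0.58, HSD17B12 by 0.43 and HACD2 by 0.41. Of 14 glycerolipid genes 5 rose and 2 fell. Among all genes tested 16.3% rose and 17.4% fell, and no neighbouring list was tested against those shares. The lipid droplet coat proteins parted, as PLIN3 rose by 1.03 and PLIN2 fell by 0.94. LPIN1, a phosphatidate phosphatase, rose by 0.87, as did PCYT1A of phosphatidylcholine synthesis by 0.60. Of 12 sphingolipid genes SPTLC2 rose by 0.56 and CERS5 by 0.50, 2 in all, while UGCG fell by 0.46. Of 17 fatty acid oxidation genes 3 rose and 4 fell. The receptor PPARD rose by 1.00 and HADH fell by 0.86. The receptor PPARA, at 22.6 to 54.0 untreated and 51.6 to 108.6 treated, rose by 0.87 (adjusted p = 0.04), but by 0.49, not passing, with a floor of 50 and by 0.48, not passing, without the arrays labelled HRAS G12V; without those labelled LacZ its rise was 1.33. ACAA2 was below the floor of 20 on its untreated arrays, so its rise has no firm size: it was 1.39 with that floor and 0.27, not passing, with a floor of 50. Several of these calls were lost when the arrays of 1 vector were left out, a step that also leaves the fit with fewer arrays. Without those labelled HRAS G12V, INSIG2, SEC24C, ERLIN1, COQ2, GGPS1, FADS3, HSD17B12, SPTLC2 and CERS5 no longer passed, and without those labelled LacZ, SEC24C, ERLIN1, COQ2, GGPS1, HSD17B12 and CERS5 did not, CERS5 changing by 0.33. Without those labelled HRAS N116Y, FADS3, PPARA and HACD2 did not pass, HACD2 changing by 0.19. Some of these genes kept their size of change, as GGPS1 with 0.40 without LacZ, 0.44 without HRAS G12V and 0.43 without HRAS N116Y. Others moved, as ERLIN1 with -0.38, -0.30 and -0.65 in the same order.

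Between vectors few genes of these 8 lists passed, as few of all genes tested did. For HRAS G12V against LacZ 0 of their genes did in limma, where 0.0% of all genes tested rose and 0.0445% fell. For HRAS N116Y against LacZ 0 did, where 1.58% rose and 0.846% fell. In HRAS G12V against HRAS N116Y 2.58% of all genes tested were higher and 3.8% lower. There SCD5, a second stearoyl desaturase, had a change of -1.22 and SGMS2, a sphingomyelin synthase, was higher by 0.92.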

How the data were processed

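RNA of 8 HaCaT samples was hybridised to Affymetrix arrays, 1 per sample, per the labels' protocols. The deposited values are 1 linear intensity per probe set; MAS5 5.0 is named in the submitters' processing notes. On every array their 2% trimmed mean is close to 100. They were scaled to 100 again, given a floor of 20 and put on the log2 scale, which understates changes of dim genes. Of 54675 probe sets (62 of them controls), 41091 had 1 gene symbol in the platform annotation, 1801 several and 11777 none, and 41043 matched RefSeq's gene table. Between 28.0% and 29.9% of probe sets reached 50 on each array; the number of arrays limits the precision.

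Groups came from the titles and the stimulation field. The 6 adenovirus arrays entered 1 limma fit with additive terms for vector and TGF-beta (limma 3.58.1, R 4.3.3), with a trended prior and Benjamini-Hochberg adjustment over 8982 genes, those at 50 on at least 2 arrays. The fit has 2 residual degrees of freedom, which also hold any interaction; the prior has 8.74 and the median residual SD is 0.15 log2 units. The fit was also run on simulated data, with scatter drawn from its own prior and no interaction. That run cannot show how an interaction would affect the calls. Pairs of arrays were described by ratios with a 2-fold limit and a signal of 50 on 1 array, with no test. Alternatives changed the floor, filter, scaling, probe set rule, prior, vector term and arrays used.

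The members, the 8 neighbouring lists and the 7 marker lists were chosen with earlier results of these data known. Values are given by array for members called in a contrast, up to 5 per role by the size of the TGF-beta3 change, and the 3 largest siRNA ratios each way; up to 4 called genes per neighbouring list. ACSS2, EBP, MVK, PMVK, FASN and ACACA were added after their values were seen, so that each member is accounted for. The level of the siRNA's target is not reported here.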

Additional observations from a re-analysis of the deposited data

Results flagged for a closer look

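In 4 genes the TGF-beta3 ratio of the probe set used had opposite signs in different vectors. Each ratio is 1 array against 1 array, and the differences were not tested. EBP was higher with TGF-beta3 on the arrays labelled LacZ and HRAS G12V and lower on those labelled HRAS N116Y. The ratios differed by 0.79 and 1.06 log2 units. Other measured probe sets of EBP were not lower with HRAS N116Y, at 552 untreated and 566 treated and at 161 and 169. ACSS2, read from 1 probe set, was also higher with LacZ and HRAS G12V and lower with HRAS N116Y. Its differences were 0.7 from LacZ and 1.65 from HRAS G12V. ACACA was higher with LacZ and lower with HRAS N116Y, a difference of 0.34. Its second measured probe set was lower with both, at 69.4 untreated and 52.0 treated with LacZ and 48.9 and 43.6 with HRAS N116Y. With HRAS G12V that probe set stood at 81.0 and 83.4. PMVK was higher with LacZ and lower with HRAS G12V, a difference of 0.35.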

How the results depend on the processing

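Of the 17 rises with TGF-beta3, 11 passed under every alternative but the fit with no filter, and 6 (MVD, FDPS, LSS, DHCR7, NPC1 and ACLY) were lost under at least 1 more; of the 2 falls ELOVL6 was kept and SREBF1 lost. With no filter 0 members rose and 0 fell, as 0 of all 19775 genes did, although 19 of 28 members and 3570 genes had an unadjusted p under 0.05. An alternative added after that result was seen, which left out genes at the floor on all 6 arrays, called 15 rises and 2 falls, with 0 falls for HRAS N116Y against LacZ and 0 rises for HRAS G12V against HRAS N116Y. Without the arrays labelled HRAS G12V 11 members rose and 1 fell; without those labelled LacZ 15 rose and 2 fell, and without those labelled HRAS N116Y 22 and 2. When a gene's probe sets were averaged 1 member fell with TGF-beta3. For HRAS N116Y against LacZ, 1 member fell with a floor of 50, 0 with no filter, 2 with a filter of 100, 1 with quantile normalization, 0 with the mean of all probe sets, 0 with no trend, 6 with median centring and 7 with the 4 arrays compared. For HRAS G12V against HRAS N116Y, 0 rose with no filter, 3 with quantile normalization, 8 with median centring, 2 with the mean of all probe sets, 1 with no trend and 7 with the 4 arrays compared. The cause of these changes was not tested. The siRNA ratio of SREBF2 turned to -0.0775 when its probe sets were averaged. The vector term already sets treated against untreated arrays within each vector; without it, the unpaired form, 13 members rose and 1 fell, and 953 and 1062 of all genes tested. The labels carry no replicate numbers for a further block. The median of the fatty acid genes was 0.195 without the arrays labelled HRAS G12V. Signals near the floor, as of TM7SF2, MVD and SREBF2, limit what can be read from these genes.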
